A study of Mus musculus with 4 samples.

Results

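The chemokine ligands of the mouse were followed in embryonic fibroblasts whose Xpo5 message had been lowered by siRNA. A gene was taken as a member when its array name began with Ccl or Cxcl and a digit, or was Cx3cl1 or Xcl1, which gave 35 of the 19893 named genes on the array. Of these, 25 were tested, among 13925 genes in all, because the scanner software called their probe well above background on both arrays of one siRNA group or of both. Since brightness in 1 group was enough, the 25 are the ligands that passed this filter and not the whole family.

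The cells were wild type primary embryonic fibroblasts of C57BL/6 mice. Of 4 samples, 2 (replicates 1 and 2) received siRNA against Xpo5, the exporter of precursor microRNAs also called Exportin-5, and 2 (replicates 1 and 2) received negative control siRNA. All 4 were transfected with 60 nM siRNA for 12 h, kept in 0.2% serum for 48 h and then given 20% serum for 24 h with a second transfection, so every value describes serum-refed cells. The series text names 2 independent experiments, and same-numbered samples were taken as 1 experiment here, which the labels do not spell out. Total RNA was measured on 1-colour arrays, and precision is limited by there being 2 arrays a group. Each slide held 1 array of each siRNA, with Xpo5 siRNA replicate 1 beside control siRNA replicate 2 on slide 1, and Xpo5 siRNA replicate 2 beside control siRNA replicate 1 on slide 2.

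Chemokines are small secreted proteins that steer leukocytes and other cells by binding receptors that couple to G proteins. The CC and CXC subfamilies are told apart by the spacing of their first cysteines, and Cx3cl1 and Cxcl16 are made as membrane-anchored forms that can be shed. Inflammatory ligands are switched on through NF-kB, a transcription factor released by toll-like and cytokine receptors, or through interferon and its STAT and IRF factors, while homeostatic ligands are made without an inflammatory signal. Fibroblasts are a known source of several of them, among them Ccl2, Ccl7, Cxcl1 and Cxcl12. The ligands are therefore given as interferon-driven (Cxcl9, Cxcl10, Cxcl11 and Ccl5), NF-kB-driven, homeostatic and other ligands. Some, such as Ccl5 and Cxcl10, are known to answer to both pathways.

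The letters that NF-kB and interferon-activated factors are known to bind were looked for in the ligand promoters, and the stretches with matches in tested CXC genes are shown. A window of 250 bases before the RefSeq start (GRCm38.p6) was found for 25 of the 35 ligands. Ccl2, Ccl4, Ccl5, Ccl7, Ccl11, Ccl24, Cxcl5, Cxcl11, Cxcl16 and Cxcl17 had no window and were not searched. The pattern GGGANNTTCC, a kappa-B core, was searched on both strands and was found in 5 of these 25 windows and in 1.21% of the 32851 windows of all genes. The pattern GAAANNGAAA, an interferon-stimulated response element core, was found in 3 of 25 and in 2.98% of all. The kappa-B pattern lay in Cxcl1, Cxcl2, Cxcl3, Cxcl10 and Ccl1, and the interferon pattern in Cxcl10, Cxcl14 and Ccl19. In the lines below, capitals mark the pattern, and in Cxcl1, Cxcl2 and Cxcl3 they cover 2 overlapping matches, 1 on each strand.
Cxcl1, chr5:90891149-90891209, plus strand: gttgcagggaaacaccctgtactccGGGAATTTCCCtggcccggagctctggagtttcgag
Cxcl2, chr5:90903777-90903837, plus strand: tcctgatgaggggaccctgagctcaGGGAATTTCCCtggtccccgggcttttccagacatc
Cxcl3, chr5:90786003-90786063, plus strand: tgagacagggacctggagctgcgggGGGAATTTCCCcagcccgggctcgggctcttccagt
Cxcl10, chr5:92349019-92349122, minus strand: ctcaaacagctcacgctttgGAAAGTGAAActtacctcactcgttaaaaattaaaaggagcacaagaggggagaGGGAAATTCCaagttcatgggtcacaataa
Cxcl14, chr13:56296688-56296748, minus strand: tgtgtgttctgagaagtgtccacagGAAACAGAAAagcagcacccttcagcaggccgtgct

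Cxcl1, Cxcl2 and Cxcl3 shared the same capital letters while the bases around them differed. Over the 61 printed bases, Cxcl1 and Cxcl2 were identical at 49.2% of positions, Cxcl1 and Cxcl3 at 45.9%, and Cxcl2 and Cxcl3 at 39.3%. The kappa-B match began 71 bases before the start in Cxcl1, 97 in Cxcl2 and 73 in Cxcl3. In Cxcl10 the interferon pattern began 213 bases and the kappa-B pattern 159 bases before the start. A match is a run of letters and not a measured binding site, and a window without one says nothing about the factor.

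The siRNA lowered its target. Xpo5 read 139.85 and 141 units with Xpo5 siRNA (replicates 1 and 2), against 1340.2 and 1293 units with control siRNA, where a unit is the processed intensity after every array was set to a common 75th percentile of 539.59. Xpo5 was at 10.7% of control (log2 difference -3.23 ± 0.12 SE, n = 2 a group, adjusted p = 0.0108, limma with Benjamini-Hochberg over all genes). Of the 13925 genes 3 passed an adjusted p of 0.05, which is 0.0215%. They were Xpo5 and, higher with Xpo5 siRNA, Ugt2b38 and Cyp2b13, which are named after their values were seen because the count is small. Where probes had to be well above background on all 4 arrays, 0 genes were called higher and 1 lower. Fibroblast markers were bright on every array, and their summed level was 988690 and 911040 units with Xpo5 siRNA, against 909520 and 818690 units with control siRNA. Macrophage markers were also well above background, 12 of 12 on all 4 arrays, with sums of 46841 and 39714 units with Xpo5 siRNA, against 33325 and 23619 units with control siRNA, so the cultures held macrophage transcripts beside those of fibroblasts. T cell and NK cell markers were largely absent, with 6 of 8 not well above background, Cd3d, Cd3g, Cd4 and Cd8a among them. In bulk RNA, fewer cells of a type and less RNA per cell cannot be told apart.

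No chemokine ligand passed the test between Xpo5 siRNA and control siRNA. Most stood a little higher with Xpo5 siRNA: 19 of 25 were higher and 6 lower, where 7125 of all 13925 genes were higher. The median log2 difference of the ligands was 0.26 beside 0.0065 over all genes tested. The median was 0.22 in experiment 1 and 0.31 in experiment 2. It was 0.53 within slide 1 and -0.087 within slide 2, so the sign was not the same on both slides. Each slide sets different replicates side by side, so here and below a within-slide difference also carries the gap between replicates. The median was 0.046 without control siRNA replicate 2, 0.12 without Xpo5 siRNA replicate 1 and 0.40 without control siRNA replicate 1. In 7 of 25 ligands both Xpo5 siRNA arrays lay above both control arrays, namely Cxcl9, Cxcl1, Ccl20, Cx3cl1, Cxcl14, Cxcl16 and Ccl17. That is 28.0% of the ligands, where 24.7% of all genes did so. Only Cxcl3 lay lower on both, beside 22.9% of all genes. As Cxcl3 was well above background in the control group alone, some difference was built into each count of lower ligands that includes it.

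At an unadjusted p under 0.05 there were 4 ligands higher with Xpo5 siRNA (Cxcl16, Cx3cl1, Cxcl14 and Ccl17), or 16.0%, beside 8.88% of all genes, and 1 lower (Cxcl3), or 4.0%, beside 5.8% of all genes. Taken experiment by experiment, 15 of 25 ligands were higher with Xpo5 siRNA in both experiments, beside 36.7% of all genes, and 3 were lower in both (Ccl5, Ccl6 and Cxcl3), beside 35.2%. With the replicate number as a block, 2.99% of all genes passed as higher and 1.39% as lower, and again 0 of 25 ligands passed in either direction. In that fit, which has 1 residual degree of freedom a gene, 11 ligands were higher at an unadjusted p under 0.05, beside 16.2% of all genes, and 3 were lower, beside 12.3%. The smallest block-adjusted p of any ligand was 0.0533, for Cxcl14 (limma). After normexp background correction the log2 difference turned to -0.86 for Cxcl10, -0.94 for Cx3cl1, -0.57 for Cxcl14, -0.030 for Ccl4, -0.029 for Cxcl5, 0.62 for Ccl6 and 1.44 for Cxcl3. In these 7, which changed sign in that setting alone, it kept the sign given below once spots marked for uneven local background were left out. Normexp also turned the sign of Ccl2, Ccl9, Ccl19 and Cxcl12, and that of Ccl19 and Cxcl12 stayed turned without those spots.

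**Figure D1:**
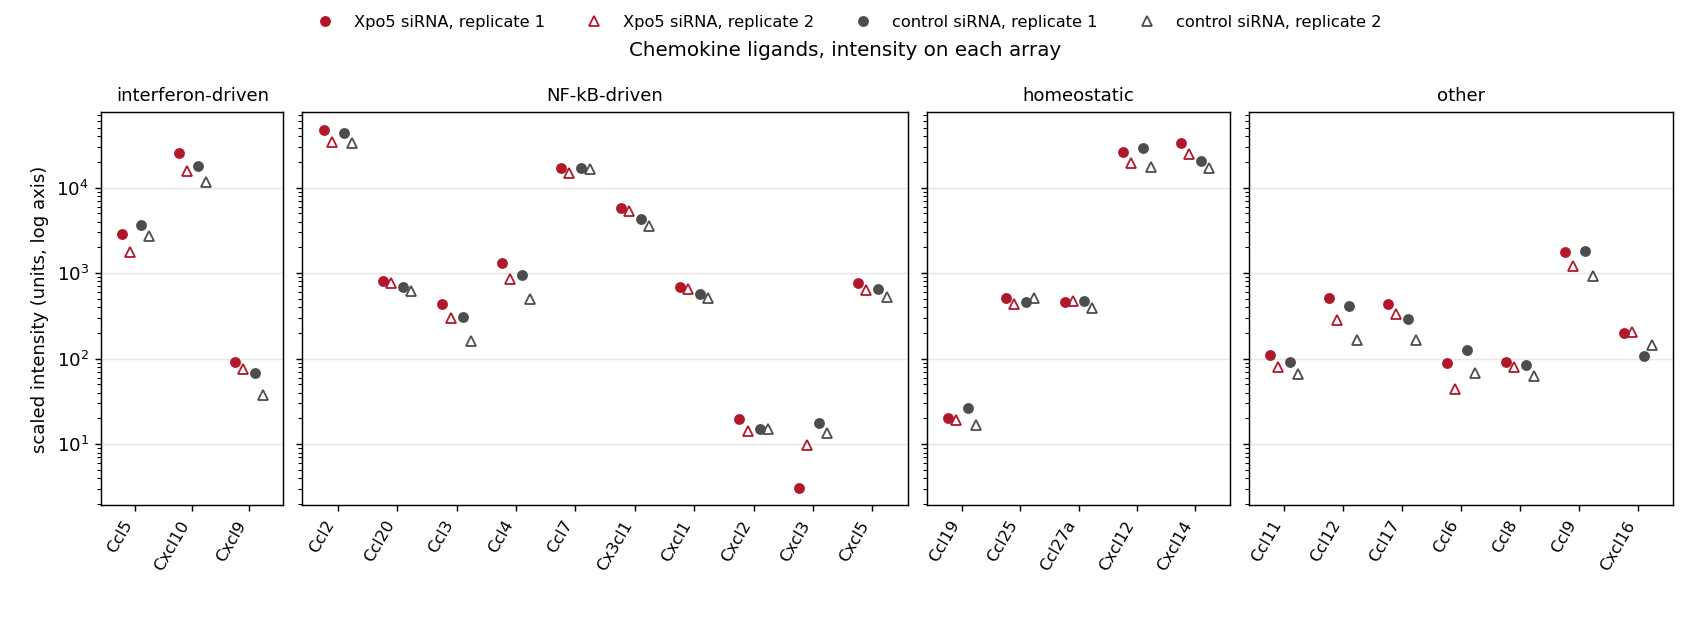
Scaled intensity (log axis, units) of the 25 tested ligands on each of the 4 arrays, in red for Xpo5 siRNA and in grey for control siRNA, with filled circles for replicate 1 and open triangles for replicate 2. Each gene is read only against itself, since probes differ in brightness for the same amount of RNA. Circles sit above triangles of the same colour for most genes, and red stands clear of grey for Cxcl14, Cxcl16, Cx3cl1 and Ccl17. Cxcl3 was not well above background with Xpo5 siRNA.

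The interferon-driven ligands did not move as 1 group: Cxcl9 and Cxcl10 were higher with Xpo5 siRNA in both experiments and Ccl5 was lower in both. Cxcl9, Cxcl10 and Cxcl11 are neighbouring genes, and the products of Cxcl9 and Cxcl10 bind Cxcr3 on activated T cells. Cxcl10 read 25091 and 15842 units with Xpo5 siRNA, against 17932 and 11542 units with control siRNA. Each Xpo5 siRNA array was above its partner of the same number, yet the groups overlapped, because control replicate 1 lay above Xpo5 siRNA replicate 2. Cxcl10 differed by 0.47 ± 0.32 on the log2 scale (SE, n = 2 a group; adjusted p = 0.543, limma), with 0.48 in experiment 1 and 0.46 in experiment 2. The block-adjusted p was 0.0706. The same difference was 1.12 within slide 1 and -0.18 within slide 2.

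Cxcl9, the ligand of the trio most tied to interferon gamma, read 90.6 and 75.4 units with Xpo5 siRNA, against 68.8 and 38.0 units with control siRNA. The groups did not overlap, and the lowest array was control replicate 2. Cxcl9 differed by 0.69 ± 0.31 on the log2 scale (SE; adjusted p = 0.387, block-adjusted p = 0.0907, limma), with 0.40 and 0.99 in experiments 1 and 2. Cxcl11 was near the limit of detection. It read 35.6 and 13.2 units with Xpo5 siRNA, against 23.5 and 9.87 units with control siRNA, was well above background on 1 array of each group, and was not tested.

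Ccl5, also called RANTES, which draws T cells and monocytes, ran the other way. It read 2868 and 1779 units with Xpo5 siRNA, against 3611 and 2723 units with control siRNA. Xpo5 siRNA replicate 2 was the lowest array and control replicate 1 the highest, while the other pair crossed, so the groups overlapped. Ccl5 differed by -0.47 ± 0.28 on the log2 scale (SE; adjusted p = 0.497, block-adjusted p = 0.0927, limma), with -0.33 in experiment 1 and -0.61 in experiment 2. A second Ccl5 probe gave 907 and 521 units with Xpo5 siRNA, against 1503 and 835 units with control siRNA, a log2 difference of -0.70. Both probes were thus lower with Xpo5 siRNA in each experiment. Within slide 1 the first probe differed by 0.075 and within slide 2 by -1.02. Over the 3 tested genes the interferon-driven median was 0.47, but -0.86 after normexp background correction. With normexp it was 0.38 once spots marked for uneven local background were left out.

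The wider interferon list held Ifnb1, interferon receptors, their signalling factors, RNA sensors and induced antiviral genes. Of 25 tested, 21 had a higher mean with Xpo5 siRNA and 4 a lower one, where 7125 of 13925 genes had a higher one. The median log2 difference of the list was 0.46, and 0 of its genes passed the test without the block. The median was 0.96 within slide 1 and -0.17 within slide 2. With the block, a fit with 1 residual degree of freedom, 4 of 25 were called higher, namely Mx1, Oas1a, Oas3 and Ifnb1, beside 2.99% of all genes. Mx1 read 53.7 and 28.7 units with Xpo5 siRNA, against 14.6 and 12.0 units with control siRNA. The log2 difference of Mx1 was 1.57 ± 0.32 (SE, adjusted p = 0.174, block-adjusted p = 0.0434, limma). Irf7, which drives interferon genes, differed by 0.65, and Ddx58, the RNA sensor RIG-I, by 0.57. The 2 arrays of each siRNA were apart in this list as well, since 24 of 25 genes had their higher mean in replicate 1. The median gap was 0.59, and 8553 of all 13925 genes had their higher mean in replicate 1.

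Among the NF-kB-driven ligands 8 of 10 were higher with Xpo5 siRNA and 2 lower, with a median of 0.25. After normexp background correction the median was -0.0064, and 0.25 once spots marked for uneven local background were left out. Cx3cl1, or fractalkine, tethers cells bearing Cx3cr1. It read 5764 and 5273 units with Xpo5 siRNA, against 4352 and 3544 units with control siRNA. Both Xpo5 siRNA arrays lay above both control arrays, as they did for Cxcl1 and Ccl20 of the same class. On the log2 scale it differed by 0.49 ± 0.16 (SE; adjusted p = 0.280, block-adjusted p = 0.0744, limma), with 0.41 and 0.57 in the 2 experiments and 0.70 and 0.28 within the 2 slides. Normexp background correction turned the Cx3cl1 difference to -0.94, and to 0.39 once spots marked for uneven local background were left out. A second Cx3cl1 probe was not well above background on any array.

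Ccl3 and Ccl4, the macrophage inflammatory proteins, which attract monocytes and T cells, lie side by side and ranked the 4 arrays in the same order. Ccl3 read 439 and 299 units with Xpo5 siRNA, against 309 and 162 units with control siRNA. Ccl4 read 1304 and 847 units with Xpo5 siRNA, against 945 and 501 units with control siRNA. In both genes control replicate 2 was the lowest array and control replicate 1 reached above Xpo5 siRNA replicate 2, so the groups overlapped. On the log2 scale the difference was 0.70 ± 0.36 for Ccl3 (adjusted p = 0.450, limma) and 0.61 ± 0.37 for Ccl4 (adjusted p = 0.504, limma), with block-adjusted p of 0.0628 and 0.0653. Macrophages are a known source of both, and all 12 macrophage markers had a higher mean with Xpo5 siRNA. Single markers differed in whether Xpo5 siRNA replicate 2 lay above control replicate 1. The part of macrophages in the result was not tested.

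Of the neutrophil-attracting ligands that signal through Cxcr2, Cxcl1, Cxcl5 and Cxcl2 had differences of at most 0.30 on the log2 scale, and Cxcl3 is given after them. Cxcl1 read 680.4 and 646 units with Xpo5 siRNA, against 566 and 509.7 units with control siRNA. Its groups did not overlap, and the log2 difference was 0.30 ± 0.13 (SE; adjusted p = 0.386, limma). Cxcl5 read 761.6 and 635 units with Xpo5 siRNA, against 657 and 526 units with control siRNA, with overlapping groups and a log2 difference of 0.24. Cxcl2 was dim, at 19.7 and 14.3 units with Xpo5 siRNA, against 15.2 and 15.3 units with control siRNA. Its sign was not the same in both experiments, with 0.38 in experiment 1 and -0.095 in experiment 2.

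Cxcl3, with the same kappa-B letters as Cxcl1 and Cxcl2, was well above background on both control arrays and on neither Xpo5 siRNA array. It read 3.11 and 9.73 units with Xpo5 siRNA, against 17.5 and 13.5 units with control siRNA, with group means of 5.50 and 15.4 units. The Xpo5 siRNA mean is uncertain. With replicate 1 raised to the dimmest signal still well above background on that array, Cxcl3 was 1.83-fold lower with Xpo5 siRNA. Replicate 2 lay just above that level on its own array and was left as read. The fit on the readings themselves gave an adjusted p of 0.320 and a block-adjusted p of 0.144 (limma). After normexp background correction without spots marked for uneven local background, the log2 difference was -0.14. Cxcl3 passed the filter through the control group alone, so some difference was built into its selection.

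Ccl2 and Ccl7, the monocyte attractants that bind Ccr2, showed the smallest differences of the class. Ccl2 read 46991 and 33881 units with Xpo5 siRNA, against 43761 and 33291 units with control siRNA. Its 2 replicate 1 arrays were high and its 2 replicate 2 arrays low whichever siRNA was used. The log2 difference was 0.064 ± 0.23 (SE; adjusted p = 0.918, limma), and -0.041 when arrays were scaled by their median. Ccl7 read 17007 and 14871 units with Xpo5 siRNA, against 16815 and 16428 units with control siRNA, a log2 difference of -0.064 ± 0.14, and -0.15 at its second probe. Ccl20, which attracts cells bearing Ccr6, read 806 and 758 units with Xpo5 siRNA, against 693 and 611 units with control siRNA, without overlap (log2 difference 0.26 ± 0.14, adjusted p = 0.450, limma).

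The NF-kB pathway itself was divided. Of 25 genes tested out of 28, 12 were higher and 13 lower with Xpo5 siRNA, with a median of -0.032, and 0 passed the test without the block. With the block 3 were called, Tlr4, Tnf and Tlr2, all higher, beside 2.99% of all genes. Tlr4, the endotoxin receptor, differed by 0.67, Ikbkg, the scaffold of the IkB kinase complex, by 0.52 and the cytokine Tnf by 0.79. Rela, which encodes the p65 subunit, read 4591 and 5068 units with Xpo5 siRNA, against 4792 and 5515 units with control siRNA. Nfkbia, an inhibitor that NF-kB itself induces, read 6673 and 7009 units with Xpo5 siRNA, against 6381 and 6223 units with control siRNA. Rela and Nfkbia differed by -0.092 and 0.12 on the log2 scale, and neither passed the test.

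Among the homeostatic ligands Cxcl14 was apart from the rest. Cxcl14, a ligand of skin and stroma whose receptor is debated, read 33401 and 24827 units with Xpo5 siRNA, against 20744 and 16829 units with control siRNA. Both Xpo5 siRNA arrays were above both control arrays. The log2 difference was 0.62 ± 0.21 (SE, n = 2 a group; adjusted p = 0.283, block-adjusted p = 0.0533, limma). It was 0.69 in experiment 1 and 0.56 in experiment 2, and 0.99 and 0.26 within slides 1 and 2. Normexp background correction turned it to -0.57, and to 0.59 once the spots marked for uneven local background were left out.

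Cxcl12, the stromal ligand of Cxcr4 and Ackr3 that retains stem and progenitor cells, read 25965 and 19661 units with Xpo5 siRNA, against 29021 and 17210 units with control siRNA. Control replicates 1 and 2 were the highest and the lowest of the 4 arrays. The log2 difference was 0.016 ± 0.30 (SE; adjusted p = 0.987, limma), with -0.16 at a second probe. Ccl25, a thymic and gut ligand of Ccr9, read 518 and 435 units with Xpo5 siRNA, against 461 and 515 units with control siRNA, with overlapping groups. Ccl27a, a skin ligand of Ccr10, read 454 and 467 units with Xpo5 siRNA, against 469.65 and 392 units with control siRNA. Ccl19, a ligand of Ccr7 on dendritic cells and T cells, was dim, at 20.4 and 19.3 units with Xpo5 siRNA, against 26.8 and 17.0 units with control siRNA.

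These 4 genes had differences of both signs between experiments. The probes of Ccl27a and Ccl19 lie in genes with near-identical copies in the mouse, so their values may join several copies. The class median was 0.016, and it was negative at -0.090 after scaling by the array median and at -0.0064 after normexp background correction. With normexp it was 0.064 once spots marked for uneven local background were left out. No direction can therefore be given for the homeostatic ligands.

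The other ligands held the largest differences on probes well above background throughout. Cxcl16, a membrane-anchored ligand that also takes up oxidised lipoprotein, read 198 and 207 units with Xpo5 siRNA, against 107 and 143 units with control siRNA. Both Xpo5 siRNA arrays were above both control arrays. The log2 difference was 0.71 ± 0.18 (SE; unadjusted p = 0.0112, adjusted p = 0.210, block-adjusted p = 0.0580, limma), with 0.88 and 0.54 in the 2 experiments. A second probe read 154 and 116 units with Xpo5 siRNA, against 98.0 and 61.8 units with control siRNA, a log2 difference of 0.78. Cxcl16 at its brighter probe was, with Cxcl3, 1 of the 2 tested ligands whose mean was lower in replicate 1 than in replicate 2.

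Ccl17, which attracts type 2 helper and regulatory T cells through Ccr4, read 438 and 333 units with Xpo5 siRNA, against 289 and 167 units with control siRNA. The groups did not overlap. The log2 difference was 0.80 ± 0.31 (SE; adjusted p = 0.334, block-adjusted p = 0.0550, limma), with 0.60 and 1.00 in the 2 experiments. Ccl17 lies on chromosome 8 in a row with Cx3cl1 and Ccl22. On mm9, the build of the array's probe positions, their probes lie at 97335770-97335829, 97306185-97306244 and 97274709-97274768. Ccl22, which shares Ccr4 with Ccl17, was not well above background on any array.

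Ccl6 and Ccl9, myeloid ligands of Ccr1 that exist in rodents, were unlike each other. Ccl6 read 88.4 and 44.7 units with Xpo5 siRNA, against 126 and 68.1 units with control siRNA. Each Xpo5 siRNA array was below its partner, with overlap between the groups, and the log2 difference was -0.56 ± 0.44 (SE; adjusted p = 0.596, block-adjusted p = 0.0579, limma). Ccl9 read 1784 and 1213 units with Xpo5 siRNA, against 1825 and 923 units with control siRNA, with a log2 difference of 0.18 and signs that differed between experiments.

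The Ccl5, Ccl9, Ccl6, Ccl3 and Ccl4 probes follow each other on chromosome 11 between 83339296 and 83478111 (mm9). Neighbours on this stretch did not share a direction, with Ccl5 and Ccl6 lower and Ccl3 and Ccl4 higher with Xpo5 siRNA in both experiments. None of the 5 passed the test.

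The Ccl2, Ccl7, Ccl11, Ccl12 and Ccl8 probes lie together between 81850650 and 81930167 on the same chromosome. Ccl12, the rodent MCP-5, read 516 and 286 units with Xpo5 siRNA, against 416 and 166 units with control siRNA. Its gap between experiments was wider than that between siRNAs, and the groups overlapped (log2 difference 0.55 ± 0.51, adjusted p = 0.658, limma). Ccl11, or eotaxin, which attracts eosinophils through Ccr3, read 109.8 and 80.8 units with Xpo5 siRNA, against 91.2 and 65.4 units with control siRNA, a log2 difference of 0.29. Ccl8, or MCP-2, read 92.4 and 80.6 units with Xpo5 siRNA, against 83.9 and 62.2 units with control siRNA, a log2 difference of 0.26. Ccl11, Ccl12 and Ccl8 were higher with Xpo5 siRNA in both experiments, with overlapping groups.

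The remaining 10 ligands were not tested. Ccl1, Ccl21a, Ccl22, Ccl24, Ccl28, Cxcl13, Cxcl15, Cxcl17 and Xcl1 were not well above background on any array, and Cxcl11 was so on 1 array of each group. Several of them are known from lymphoid, mucosal or lung tissue rather than from fibroblasts.

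**Figure D2:**
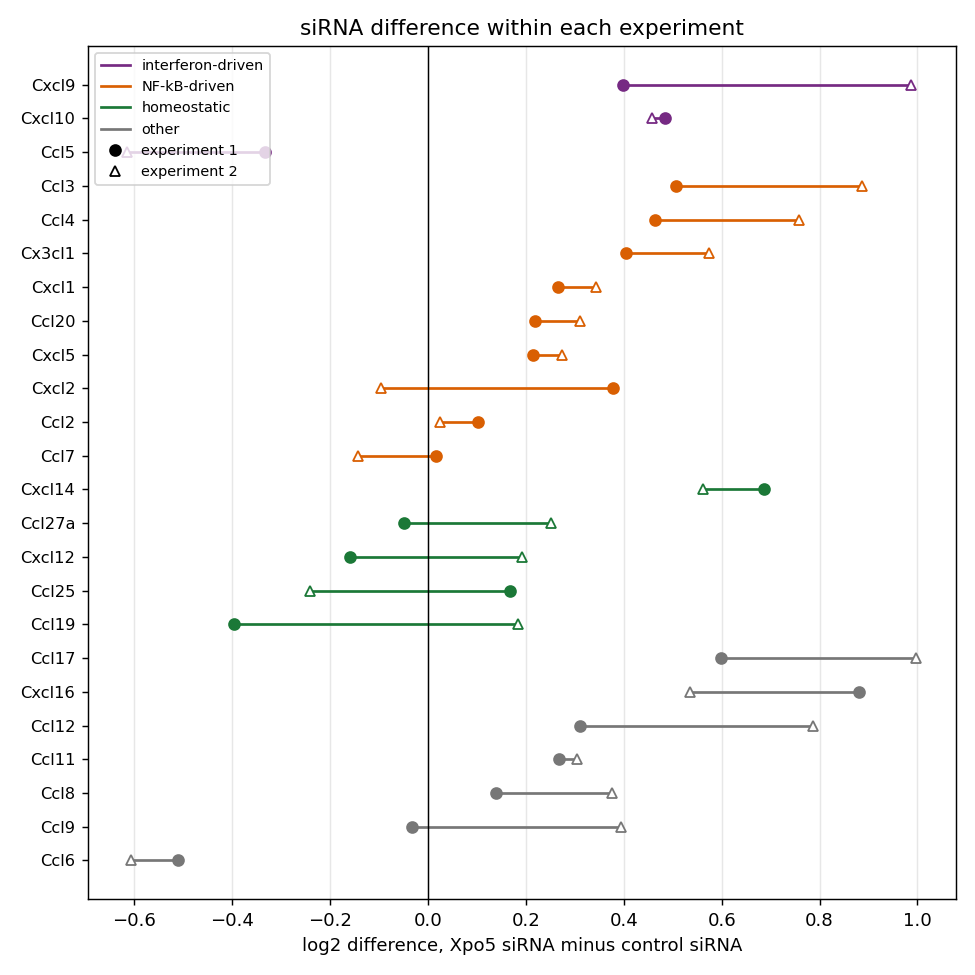
Log2 difference, Xpo5 siRNA minus control siRNA, in experiment 1 (filled circles) and experiment 2 (open triangles) for the 24 ligands well above background on all 4 arrays, coloured by class. Points of Cxcl14, Cxcl16, Cx3cl1, Ccl17, Cxcl9, Ccl3 and Ccl4 lie right of 0 in both experiments and those of Ccl5 and Ccl6 left of 0 in both, while 4 of the 5 homeostatic ligands straddle 0. Of the ligands just named, Cxcl14, Cx3cl1, Ccl4 and Ccl6 change sign under normexp background correction. Their sign is as shown once spots marked for uneven local background are left out. Ccl2, Ccl9, Ccl19, Cxcl5, Cxcl10 and Cxcl12 also change sign under normexp.

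Most ligands read higher in experiment 1 than in experiment 2. Averaged over both siRNAs, 23 of 25 ligands stood higher in replicate 1, beside 8553 of 13925 genes. The median log2 gap between the replicates was 0.37 for the ligands, beside 0.063 over all genes. With each siRNA taken by itself, 20 of 25 were higher in replicate 1 with both, beside 45.3% of all genes. No gene passed the test for this difference (0.0% of all genes, limma with Benjamini-Hochberg), in a fit with 1 residual degree of freedom a gene. After normexp background correction without spots marked for uneven local background, 10 of 25 ligands passed it, beside 10.7% of all genes. Ccl12 had the widest gap of the tested ligands, 0.85 between the Xpo5 siRNA arrays and 1.33 between the control arrays. Ccl6 followed with 0.98 and 0.89, Ccl9 with 0.56 and 0.98, and Ccl4 with 0.62 and 0.92. Cxcl1 and Ccl20 differed little between experiments, with gaps of 0.074 and 0.089 between the Xpo5 siRNA arrays and 0.15 and 0.18 between the control arrays.

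**Figure D3:**
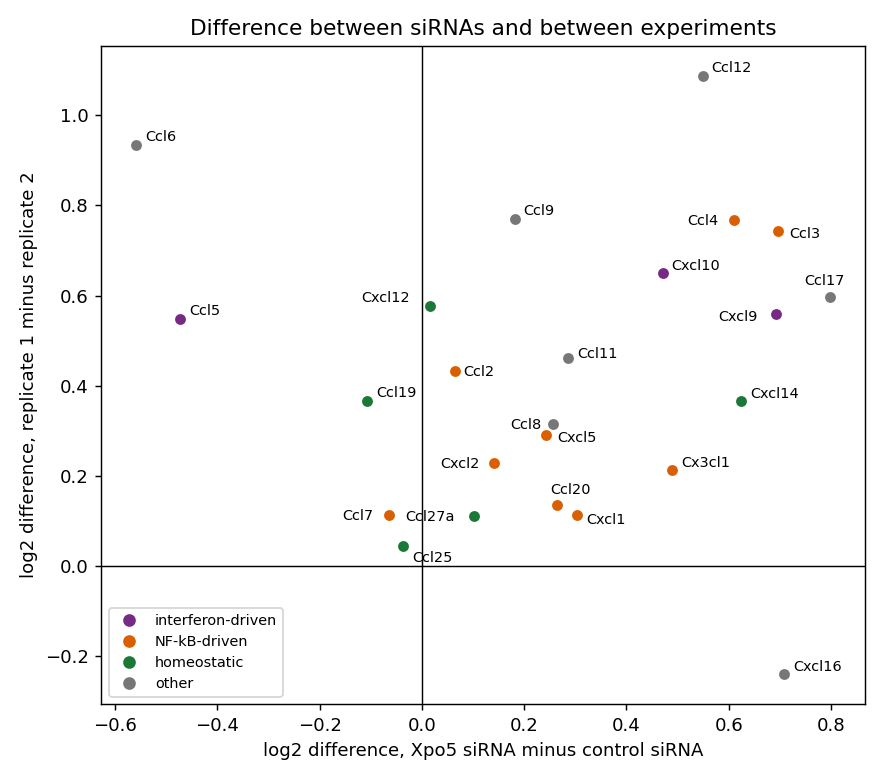
Log2 difference between siRNAs (x axis, Xpo5 siRNA minus control siRNA) and between experiments (y axis, replicate 1 minus replicate 2) for the 24 ligands well above background on all 4 arrays, 1 point a gene, coloured by class. All but Cxcl16 lie above 0 on the y axis, with Ccl12 highest at 1.09, and Ccl5 and Ccl6 are the 2 points far to the left. Under normexp background correction some genes change sign. Cxcl14 turned to -0.57, and was at 0.59 once spots marked for uneven local background were left out.

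Chemokine receptor genes were mostly dim. Of 22 listed here 8 were tested, and all 8 had a higher mean with Xpo5 siRNA, beside 7125 of 13925 genes. The receptor median was 0.37, and 0 receptors passed the test. Among them Ccr3 was not well above background on control replicate 2, so it passed the filter through the Xpo5 siRNA group, and Cx3cr1 had 1 Xpo5 siRNA value. Cxcr6, the receptor of Cxcl16, read 501 and 527 units with Xpo5 siRNA, against 265 and 219.5 units with control siRNA, well apart. The log2 difference was 1.09 ± 0.15 (SE; adjusted p = 0.145, block-adjusted p = 0.0434, limma). Cx3cr1, the receptor of Cx3cl1, read 82.1 units on 1 Xpo5 siRNA array, against 53.7 and 37.5 units with control siRNA, and its fit dropped Xpo5 siRNA replicate 1, where the spot was left out (log2 difference 0.87 ± 0.28, adjusted p = 0.305, limma). With 1 array in that group, this error rests on the spread of the control arrays and on limma's spread over all genes. Ackr3, an atypical receptor that takes up Cxcl12, read 672 and 545 units with Xpo5 siRNA, against 506 and 434 units with control siRNA, without overlap (log2 difference 0.37 ± 0.17, adjusted p = 0.402, limma).

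The other receptors tested were Ccrl2, Ackr1, Ccr3, Cxcr4 and Xcr1, with log2 differences between 0.18 (Xcr1) and 0.61 (Ccrl2). Not well above background on both arrays of either group were 14 receptors, among them Cxcr3, through which Cxcl9 and Cxcl10 act, Cxcr2, through which Cxcl1 and Cxcl5 act, and Ccr2, the receptor of Ccl2 and Ccl7.

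**Figure D4:**
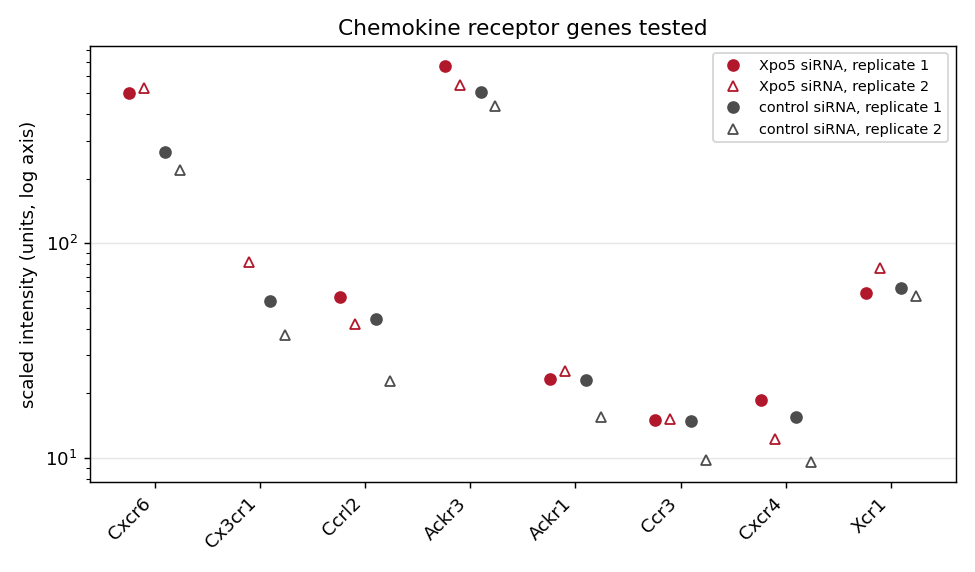
Scaled intensity (log axis, units) of the 8 tested chemokine receptor genes on each array, in red for Xpo5 siRNA and in grey for control siRNA, with filled circles for replicate 1 and open triangles for replicate 2. Red stands above grey for Cxcr6, at 501 and 527 units against 265 and 219.5 units, and Cx3cr1 has no value for Xpo5 siRNA replicate 1.

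Markers of other cells were measured beside these ligands and receptors, and none passed the test without the block. All 12 macrophage markers had a higher mean with Xpo5 siRNA, with a median log2 difference of 0.64, and 4 were called with the block (Laptm5, Aif1, Adgre1 and Itgam), beside 2.99% of all genes. Adgre1, which encodes F4/80, read 661 and 478 units with Xpo5 siRNA, against 338 and 228 units with control siRNA (log2 difference 1.02 ± 0.26, adjusted p = 0.213, limma). Aif1 differed by 1.08 and Laptm5 by 0.87. The macrophage markers also followed the experiments, with all 12 higher in replicate 1, beside 8553 of 13925 genes, and a median gap of 0.40. Their part in the chemokine and receptor values was not tested.

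Of 6 endothelial markers 3 were tested, with a median of 0.63, and Pecam1, Cdh5 and Tie1 were not well above background; Kdr differed by 1.19, Tek by 0.63 and Emcn by -0.34. Kdr was called with the block (block-adjusted p = 0.0434, limma). Of 4 platelet and megakaryocyte markers 3 were tested, with differences of 0.79 for Itgb3, 0.81 for Itga2b and 0.26 for Gp1bb, and Itgb3 was called with the block (block-adjusted p = 0.0466, limma). Of the T and NK cell list Cd3e and Nkg7 were tested, at -0.059 and 0.13, with Nkg7 not well above background on control replicate 2. The neutrophil gene Mpo differed by 0.33. S100a9 was not well above background on Xpo5 siRNA replicate 1 and was uneven between replicates of both groups, at 1.52 and 38.9 units with Xpo5 siRNA, against 63.6 and 14.4 units with control siRNA. The 8 fibroblast markers had a median difference of 0.023, with 5 higher and 3 lower, led by Col1a2 at 0.28, Dcn at 0.35 and Pdgfrb at -0.31.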

How the data were processed

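Processed spot intensity was deposited for 4 arrays. Per the file headers it came from Agilent Feature Extraction, version 10.5.1.1, with background subtraction and spatial detrending. The deposited log2 table equals log2 of that intensity shifted by 1 constant an array to a median of 5.33 (99.7% to 99.8% of probes within 0.001). Of 43379 non-control spots an array, 77 to 134 outliers were left out and 0 were saturated, and 62.4% to 65.0% were well above background. Log2 intensity minus the array's 75th percentile was averaged over the spots of a probe. Probes had to be well above background on both arrays of one group or of both, and each gene was represented by its brightest kept probe. Names came from RefSeq (GRCm38.p6), used for names, promoter windows and their coordinates only. Groups were compared with limma 3.58.1 in R 4.3.3 (2-sided, Benjamini-Hochberg, threshold 0.05). The fit without the block was run on simulated data drawn independently for each array, which held no gap between experiments and so cannot judge its effect. With 2 arrays against 2, an exact permutation test cannot go below 0.333, so none was used, and p-values reflect only the spread of these samples, which may be technical. Log2 deviations of same-numbered samples from their group means correlated at 0.452 over 13919 genes. Every tested ligand was named, and of each other list the members with the 3 smallest p-values, plus Rela and Nfkbia, block-called genes where 5 or fewer, and receptors at the ends of their range. One receptor of the list is not reported here. The members, classes and lists were chosen with earlier results of these data known.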

Additional observations from a re-analysis of the deposited data

How the results depend on the processing

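No chemokine ligand passed the adjusted p of 0.05 between Xpo5 siRNA and control siRNA under any of the settings run. The 3 genes called in all became 0 with normexp, 8 with array median scaling, 0 without a filter on dim probes, 1 with probes well above background on all 4 arrays, 1 with the mean of a gene's probes, 0 with every probe on its own, 609 with the replicate block, 8 with the deposited log2 table, and 0 to 24 when 1 array was left out; a lone array was then assumed to vary like the other group. The series text names 2 independent experiments, so the replicate block was taken to pair the samples; it changed no call of a ligand. Array median scaling and the deposited table each moved the median of all genes by -0.11 and normexp by -0.17. With every spot marked for uneven local background left out on all 4 arrays, the normexp shift was 0.017. Xpo5 siRNA replicate 1 held 10 marked spots whose local background exceeded their signal by a set margin, and each other array held 0. The ligand median of 0.26 was 0.11 with normexp, 0.15 with normexp without the uneven spots, 0.15 with array median scaling, 0.14 without a filter, 0.15 with the deposited table, and 0.046 (without control siRNA replicate 2) to 0.40 (without control siRNA replicate 1) with 1 array left out, 0.12 being without Xpo5 siRNA replicate 1. The interferon-driven median of 0.47 was -0.86, 0.38, 0.37 and 0.36 with normexp, normexp without the uneven spots, array median scaling and the deposited table, and 0.14 to 0.80 with 1 array left out. The NF-kB-driven median of 0.25 was -0.0064, 0.15 and 0.15 with normexp, array median scaling and the deposited table, and 0.15 to 0.37 with 1 array left out. The homeostatic median of 0.016 was -0.0064 with normexp, -0.090 with array median scaling, -0.011 without a filter, -0.072 with the mean of a gene's probes, -0.090 with the deposited table, and -0.14 to 0.23 with 1 array left out. Between replicates 1 and 2, the count of ligands called was 10 in place of 0 with normexp without the uneven spots (10.7% of all genes passed there), and the median of 0.37 was 0.26, 0.40, 0.47, 0.29, 0.40 and 0.47 with that setting, quantile normalization, array median scaling, no filter, the all-array filter and the deposited table.

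Of the 25 ligands, 9 kept their direction in every alternative, 7 changed sign with plain normexp alone, and 9 changed sign elsewhere. With normexp the log2 difference was 1.52 for Ccl19, -1.07 for Ccl2, -0.030 for Ccl4, 0.62 for Ccl6, -0.60 for Ccl9, -0.94 for Cx3cl1, -0.86 for Cxcl10, -1.26 for Cxcl12, -0.57 for Cxcl14, 1.44 for Cxcl3 and -0.029 for Cxcl5. Without the uneven spots it was 0.064 for Ccl19, 0.0008 for Ccl25, 0.096 for Ccl7 and -0.054 for Cxcl12. Array median scaling gave -0.041 for Ccl2, -0.0038 for Ccl27a and -0.090 for Cxcl12, the deposited table -0.042, -0.0043 and -0.090, and the mean of probes -0.072 for Cxcl12. With 1 array left out, the difference spanned 0 for 9 ligands, from -0.11 to 1.21 for Ccl12, -0.44 to 0.22 for Ccl19, -0.17 to 0.30 for Ccl2, -0.16 to 0.088 for Ccl25, -0.029 to 0.23 for Ccl27a, -0.16 to 0.033 for Ccl7, -0.31 to 0.67 for Ccl9, -0.36 to 0.39 for Cxcl12 and -0.091 to 0.37 for Cxcl2. Apart from the construction of these settings, the cause of the changes was not tested.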

Other observations

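Chemokines that carry other gene names were not matched by the rule and are given as values. Pf4, or Cxcl4, a product of platelets and macrophages, read 998 and 797 units with Xpo5 siRNA, against 1185 and 779 units with control siRNA, a log2 difference of -0.11 with overlapping groups (adjusted p = 0.865, limma). Ppbp, or Cxcl7, its neighbour in function in platelet granules, read 759.6 and 639 units with Xpo5 siRNA, against 819.5 and 656 units with control siRNA, a log2 difference of -0.074 (adjusted p = 0.870, limma). Cklf, a chemokine-like factor, read 3709 and 3642 units with Xpo5 siRNA, against 4274 and 3878 units with control siRNA, a log2 difference of -0.15. Both Xpo5 siRNA arrays of Cklf lay below both control arrays, and the difference did not pass the test (adjusted p = 0.641, limma).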
